A study of Mus musculus with 2 samples.

Results

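The genes described here are 9 adhesion molecules of leukocytes: the integrin chains Itgam, Itgal, Itgb2, Itgb2l and Itga4, the selectin ligand Selplg, the hyaluronan receptor Cd44, the integrin ligand Icam1 and Amica1, which encodes the junctional adhesion molecule-like protein JAML. They are 9 of the 27998 gene rows in each of 2 count matrices, chosen by name, and all 9 had counts in both. The cells were splenocytes sorted on the surface proteins CD11b and Gr1. One library came from wild-type control mice of the strain FVB/n, 5 spleens pooled. The other came from tumour-bearing mice labelled PYMT, which carry the polyoma middle T oncogene (PyMT), 3 spleens pooled. The labels give no age, no tumour stage and no promoter for the transgene, and name no treatment of either group. Each group is 1 library of pooled animals, so no test between groups was possible, the animal-to-animal spread is unknown, and each interval below covers counting error only. The values compare 2 libraries, not the conditions.

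A leukocyte leaving the blood first rolls on selectins, for which the heavily glycosylated protein PSGL-1, the product of Selplg, is the main leukocyte ligand. It then arrests and crawls on integrins, heterodimers of an alpha and a beta chain whose binding is switched on from inside the cell. Itgb2 encodes CD18, the beta chain shared by LFA-1 (with CD11a, the product of Itgal) and Mac-1 (with CD11b, the product of Itgam), and both bind ICAM-1. In neutrophils Mac-1 is also stored in granules and brought to the surface on activation, so RNA and surface protein need not move together.

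The cells were placed in classes by rule. Neutrophils had at least 10% of their unique molecular identifiers (UMIs, each marking 1 captured RNA molecule) from S100a8 and S100a9 and fewer than 2 from Cd79a and Cd79b. Monocytes and B cells had under 5%, with at least 2 UMIs of Csf1r and Ccr2 or at least 3 of Cd79a and Cd79b. Neutrophils were split by Camp, a secondary granule gene transcribed in the bone marrow stages and lost with maturation, into Camp-high (at least 4% of a cell's UMIs), Camp-mid (1 to 4%) and Camp-low (under 1%) cells. The wild-type library gave 3980 neutrophils, 530 monocytes and 304 B cells of 5491 cells, and the PyMT library 5489, 1526 and 1081 of 9155. The stages were very unequal: 3456 wild-type neutrophils were Camp-high, 468 Camp-mid and 56 Camp-low, against 1619, 1812 and 2058 in the PyMT library. Levels are UMIs scaled to the class total (CPM, counts per 1e6 UMIs of the class). The libraries held 42542700 and 73435307 UMIs, at a median of 5668 and 7063 per cell, and shared 72 cell barcodes. The neutrophil markers reached between 57201 and 158173 CPM in the neutrophil stages and between 3959 and 5069 CPM in monocytes and B cells, and the 10 B cell markers reached 8135 and 9723 CPM in B cells and at most 59.3 CPM in monocytes. The B cell list includes Cd79a and Cd79b, which define that class, and the neutrophil list includes Camp, which splits the stages. These contrasts are thus in part set by the rules. Why B cells passed a sort on CD11b and Gr1 was not tested. A level summed over a class cannot tell fewer cells with the RNA from less RNA per cell, so shares of cells are given for the genes that differ most.

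**Figure D1:**
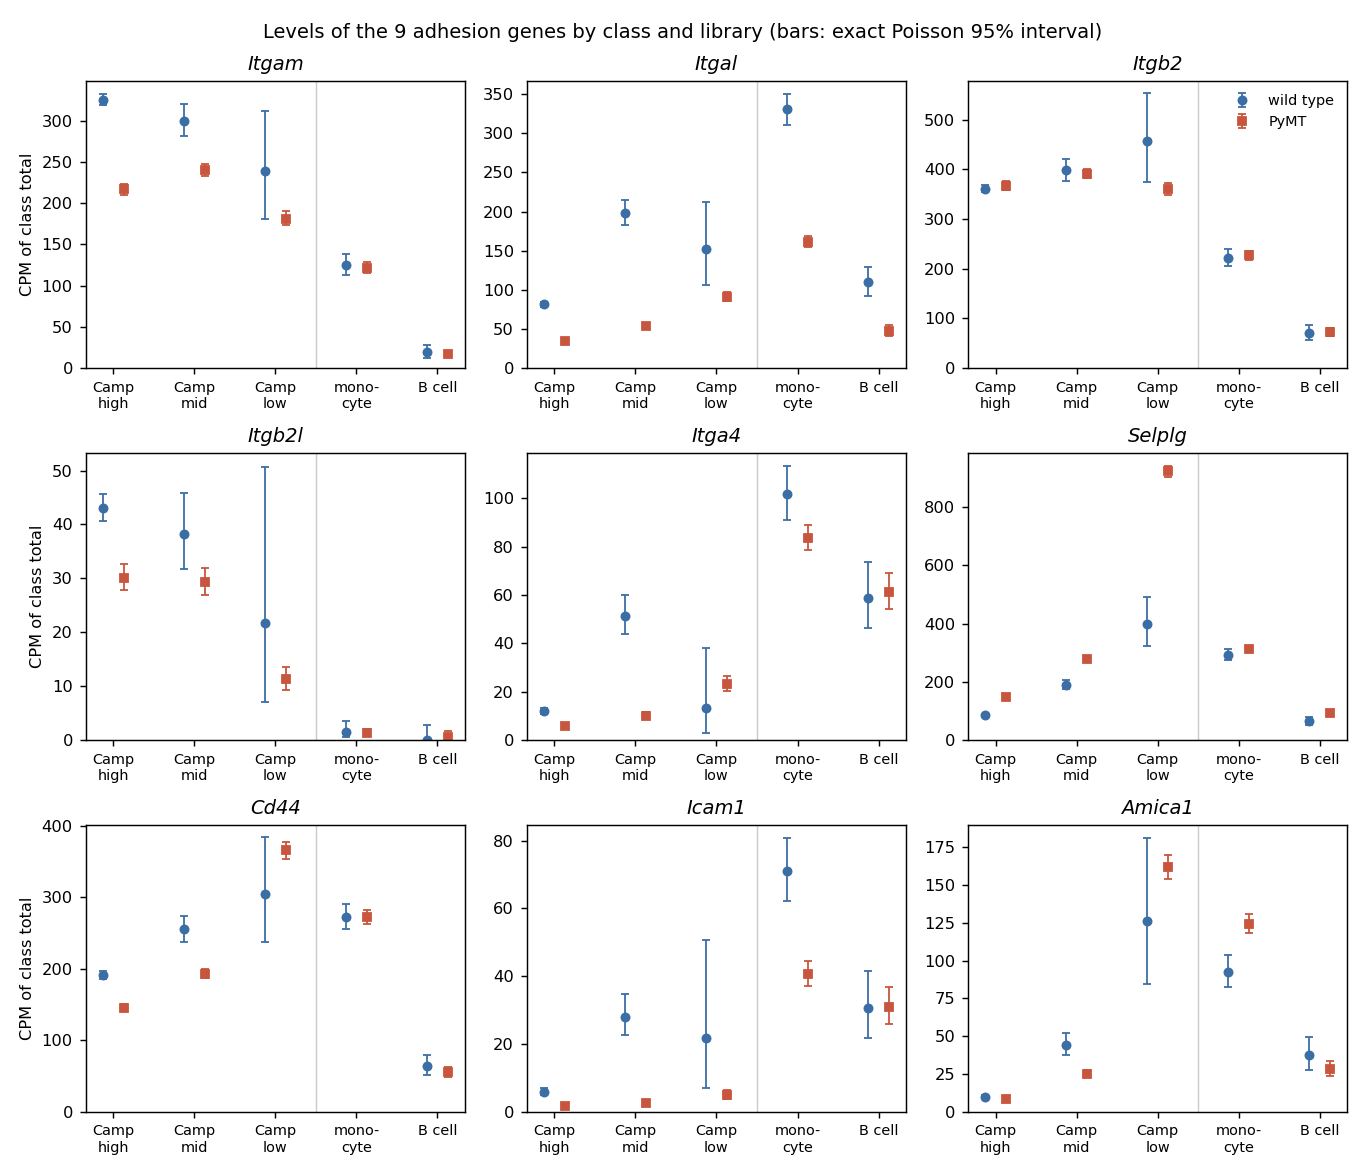
Levels (CPM of the class total, linear axes from 0) of the 9 genes in 3 neutrophil stages, monocytes and B cells of the wild-type library (circles) and the PyMT library (squares), with exact Poisson 95% intervals. Itgam and Itgb2l are highest in neutrophils, Itga4 and Icam1 in monocytes, and Selplg and Amica1 in Camp-low neutrophils, at 924 and 162 CPM in the PyMT library.

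Itgam encodes CD11b, the alpha chain of Mac-1 and an antigen of the sort, and was highest in neutrophils. It lies on chromosome 7 (128062640 to 128118491, plus strand, GRCm38) and overlaps Gm49368 on the same strand. In wild-type cells its level was 325 CPM in Camp-high (8785 UMIs, 95% interval 318 to 332), 300 in Camp-mid and 239 in Camp-low neutrophils, 125 in monocytes and 19.1 in B cells. The PyMT library gave 217, 240, 181, 122 and 16.8 CPM in the same order. The neutrophil stages thus lay above monocytes in both libraries, and monocytes above B cells. The 4 granule genes measured as neutrophil RNA (Camp, Ngp, Ltf and Lcn2) reached 2.44% of their neutrophil level in wild-type and 3.80% in PyMT B cells. At those percentages Itgam would be at 7.85 and 8.30 CPM in B cells, below the levels measured there. These figures take RNA of all neutrophils as the source. PyMT Camp-low cells held the granule genes at 19645 CPM against 97460 CPM in all PyMT neutrophils, with Itgam at 181 and 218 CPM. RNA of Camp-low cells would thus bring more Itgam per granule RNA, and the source of Itgam in B cells was not tested. Across all neutrophils Itgam was at 322 CPM in wild-type cells and 218 CPM in PyMT cells, a log2 ratio of -0.56 (95% interval -0.60 to -0.52). The promoter window (250 bases before to 50 after the start, RefSeq table on GRCm38.p6) is printed because Itgam is the gate of the experiment. Its capitals mark the 3 matches to GAGGAA on either strand, the core of sites for the myeloid factor PU.1, which 28.3% of all 32851 such windows hold.
Itgam promoter, chr7:128062390-128062689 (plus strand): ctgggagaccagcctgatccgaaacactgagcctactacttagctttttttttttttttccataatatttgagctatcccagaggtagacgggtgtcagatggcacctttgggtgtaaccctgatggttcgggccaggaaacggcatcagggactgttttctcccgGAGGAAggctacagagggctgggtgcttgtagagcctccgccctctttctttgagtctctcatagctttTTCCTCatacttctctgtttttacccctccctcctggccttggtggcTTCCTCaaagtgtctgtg

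Itgb2, the common beta chain (chromosome 10, 77530252 to 77565708, plus strand), differed little between the libraries at the class totals. It stood at 361, 398 and 457 CPM in Camp-high, Camp-mid and Camp-low wild-type neutrophils and at 367, 391 and 360 CPM in those of the PyMT library. Monocytes had 222 and 227 CPM, and B cells 70.4 and 71.9 CPM. The ratio between the libraries was 0.04 in all neutrophils (0.00 to 0.07), -0.34 in Camp-low cells, where the wild-type value rests on 105 UMIs, and between -0.03 and 0.03 in the other classes. With the median of ratios in place of the class total it became 0.56 in all neutrophils and 0.74 in Camp-mid cells. In Camp-mid cells Itgb2 was past 1.5-fold higher under that scaling and under the trimmed mean of M-values. CD18 pairs with either alpha chain, and the share of an alpha chain in the UMIs of both genes does not depend on the scaling. Itgam made up 47.4% of Itgam plus Itgb2 UMIs in wild-type Camp-high cells (46.7 to 48.1%) and 37.1% in PyMT ones (36.2 to 38.0%). In Camp-low cells the shares were 34.4% (27.1 to 42.3%) and 33.5% (32.2 to 34.8%), and in monocytes 36.0% and 34.9%. The lower Itgam share in PyMT cells was thus seen in Camp-high and, to a lesser extent, Camp-mid neutrophils (43.0% against 38.0%), while in Camp-low cells, monocytes and B cells (21.4% and 18.9%) the intervals overlapped.

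Itgb2l, an Itgb2-like beta chain gene of mice (chromosome 16, 96422288 to 96443619, minus strand), was found in neutrophils, mainly at the Camp-high and Camp-mid stages. Its level in wild-type cells was 43.0 CPM in Camp-high (1163 UMIs) and 38.3 in Camp-mid cells (120 UMIs), and 21.7 CPM in Camp-low cells, where it rests on 5 UMIs. PyMT cells gave 30.2 CPM in Camp-high (587 UMIs), 29.4 in Camp-mid (554 UMIs) and 11.3 in Camp-low cells (113 UMIs). Monocytes had 1.52 and 1.28 CPM, close to the 1.09 and 0.917 CPM that neutrophil RNA at the level of the granule genes would give. B cells had 0 UMIs in the wild-type library, which allows up to 2.29 CPM, and 2 UMIs in the PyMT library. The transcripts of Itgb2 and Itgb2l share 0 stretches of 30 bases. Its promoter window is shown beside that of Itgam as another member that was highest in neutrophils, with capitals on its 2 GAGGAA matches.
Itgb2l promoter, chr16:96443565-96443864 (minus strand): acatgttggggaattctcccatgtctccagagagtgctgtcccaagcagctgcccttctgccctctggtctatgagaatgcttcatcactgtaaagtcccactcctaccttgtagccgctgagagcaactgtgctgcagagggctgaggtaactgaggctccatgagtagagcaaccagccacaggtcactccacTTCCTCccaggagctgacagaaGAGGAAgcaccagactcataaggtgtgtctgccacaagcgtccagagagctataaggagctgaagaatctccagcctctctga

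Itgal, the CD11a chain of LFA-1 (chromosome 7, 127296260 to 127335138, plus strand), was lower in the PyMT library in each class. Wild-type levels were 81.6, 198 and 152 CPM in Camp-high, Camp-mid and Camp-low neutrophils, 330 in monocytes and 109 in B cells. The PyMT levels were 34.1, 53.7, 91.3, 162 and 47.5 CPM. No interval of a class overlapped between the libraries. In cells without any UMI of 13 genes of other lineages, chosen after these values were seen, wild-type Camp-mid cells were at 87.7 CPM and PyMT ones at 45.5 CPM, a log2 ratio of -0.95 in place of -1.89. This filter left 53.0% of wild-type and 57.1% of PyMT Camp-mid cells, and 72.1% and 59.8% of all neutrophils. The neutrophils left had median depths of 5290 and 7452 UMIs, against 5630 and 8285 before, so the filter also selects on depth. In all neutrophils without such UMIs the Itgal levels were 65.9 and 50.2 CPM, a ratio of -0.39 that is under 1.5-fold. In Camp-low cells the ratio of -0.74 was past 1.5-fold under 5 of 10 alternatives and was -0.14 after thinning to 2500 UMIs a cell. LFA-1 is found on nearly all leukocytes, and monocytes held the highest Itgal level of the classes in both libraries. Among Itgal plus Itgb2 UMIs, Itgal took 18.5% in wild-type and 8.49% in PyMT Camp-high cells, 59.8% and 41.6% in monocytes, and 60.9% and 39.8% in B cells. In Camp-low cells the shares of 25.0% (18.1 to 33.0%) and 20.2% (19.1 to 21.4%) overlapped within counting error. Within monocytes Itgal marked the nonclassical cells (no Ly6c2 UMI, at least 1 of Ace or Treml4): 552 CPM in 60 wild-type nonclassical against 189 CPM in 208 classical cells, and 355 CPM in 35 against 124 CPM in 913 PyMT cells. Nonclassical cells made up 11.3% of wild-type and 2.29% of PyMT monocytes, and in classical cells alone the ratio between libraries was -0.60, past 1.5-fold but smaller than the -1.03 of all monocytes.

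Itga4 (chromosome 2, 79255426 to 79333123, plus strand) pairs with Itgb1 or Itgb7, binding VCAM-1 or MAdCAM-1, and was mainly a gene of monocytes and B cells. Wild-type monocytes held 102 CPM and PyMT monocytes 83.7 CPM, and B cells 58.9 and 61.3 CPM. In neutrophils it was sparse: 11.9, 51.4 and 13.05 CPM in wild-type Camp-high, Camp-mid and Camp-low cells (321, 161 and 3 UMIs) and 5.65, 10.1 and 23.3 CPM in the PyMT stages (110, 190 and 233 UMIs). The wild-type Camp-mid value stood out, and these cells also carried the most monocyte RNA of the stages: the 13 monocyte markers, all with UMIs, summed to 3351 CPM there against 1968 CPM in PyMT Camp-mid cells, and Csf1r alone to 148 against 25.9 CPM. In cells without any UMI of the 13 lineage genes, Itga4 was at 8.58 CPM in wild-type (9 UMIs) and 4.97 CPM in PyMT Camp-mid cells (47 UMIs). The same cells gave 5.38 and 5.44 CPM in the Camp-high stage.

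Selplg was higher in PyMT than in wild-type neutrophils, and its level was higher at each lower Camp stage. Wild-type Camp-high, Camp-mid and Camp-low cells held 87.1, 190 and 400 CPM (2354, 597 and 92 UMIs), and PyMT cells 147, 278 and 924 CPM (2870, 5242 and 9238 UMIs). Each PyMT stage lay above its wild-type counterpart with no overlap of the intervals, by log2 ratios of 0.76 (0.68 to 0.84), 0.54 (0.42 to 0.67) and 1.21 (0.91 to 1.52). After each cell was thinned to 2500 UMIs, so that depth was the same, 20.6% of the wild-type Camp-high cells and 29.3% of the PyMT ones held a Selplg UMI. In Camp-low cells the thinned shares were 64.3% (50.4 to 76.6%) and 87.8% (86.3 to 89.2%), and 80.4% and 96.5% without thinning, at median depths of 3339 and 4058 UMIs. B cells, at median depths of 3762 and 3420 UMIs, had thinned shares of 9.87% and 16.0%. Monocytes differed little, at 292 and 314 CPM, and B cells had 63.5 and 94.1 CPM. The annotation places Selplg on chromosome 5 (113818536 to 113832644, minus strand) with no overlapping gene.

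Cd44, the receptor for hyaluronan that also carries selectin-binding sugars, was higher in Camp-low than in Camp-high cells, as Selplg was. It lies on chromosome 2 (102811141 to 102901665, minus strand). Levels in the PyMT stages were 146, 193 and 365 CPM, against 191, 255 and 305 CPM in the wild-type stages. The libraries were alike in monocytes, at 273 CPM in each, and in all neutrophils, at 199 and 210 CPM. Selplg made up 31.3% of Selplg plus Cd44 UMIs in wild-type Camp-high cells (30.2 to 32.3%) and 50.3% in PyMT ones (49.0 to 51.6%), and 56.8% (48.8 to 64.5%) against 71.7% (70.9 to 72.4%) in Camp-low cells. The share of Selplg was higher in the PyMT library in each stage, and such a share does not move with the scaling.

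Icam1 (chromosome 9, 21015985 to 21028817, plus strand), the ligand of LFA-1 and Mac-1, was mainly a gene of monocytes and B cells in these libraries. Monocytes held 71.0 and 40.5 CPM and B cells 30.6 and 31.0 CPM, and wild-type nonclassical monocytes exceeded classical ones, at 136.5 against 49.3 CPM. The PyMT values of 61.0 CPM (11 UMIs, 30.5 to 109) and 34.4 CPM (30.2 to 39.1) overlapped within counting error. Neutrophils held 8.29 CPM (252 UMIs) and 2.75 CPM (133 UMIs). The Camp-high, Camp-mid and Camp-low stages were at 5.88, 28.1 and 21.7 CPM in the wild-type library (159, 88 and 5 UMIs) and at 1.70, 2.70 and 4.90 CPM in the PyMT library (33, 51 and 49 UMIs). RNA of other lineages moved with this difference, as it did for Itga4. In cells without UMIs of the 13 lineage genes Icam1 was at 1.09 CPM in wild-type (20 UMIs, 0.668 to 1.69) and 2.06 CPM in PyMT neutrophils (54 UMIs, 1.55 to 2.69), the opposite order. Its promoter window is shown because it alone of the 6 windows found holds a GGAANTTCC match (NF-kB type, in 0.928% of all windows) and a TTCNNNGAA match (STAT type, in 8.30%), both in capitals. The match is a description of the letters and no value here bears on binding.
Icam1 promoter, chr9:21015690-21015989 (plus strand): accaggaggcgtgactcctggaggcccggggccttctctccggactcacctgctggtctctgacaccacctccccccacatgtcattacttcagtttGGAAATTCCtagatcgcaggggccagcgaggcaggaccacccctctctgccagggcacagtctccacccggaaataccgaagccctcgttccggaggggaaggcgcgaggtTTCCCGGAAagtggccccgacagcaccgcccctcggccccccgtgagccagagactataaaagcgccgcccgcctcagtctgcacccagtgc

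Amica1, the JAML gene (chromosome 9, 45079183 to 45108534, plus strand), separated the Camp stages more than any other member. The protein binds CXADR on epithelial and endothelial cells, and an antibody to it was in the submitters' staining panel, so that its direction is not independent evidence. Wild-type Camp-high, Camp-mid and Camp-low cells held 9.92, 44.4 and 126 CPM (268, 139 and 29 UMIs), and the PyMT stages 8.37, 25.3 and 162 CPM (163, 477 and 1617 UMIs). Within the Camp-high stage the intervals overlapped (8.76 to 11.2 and 7.14 to 9.76 CPM), but Camp was not matched inside it. At 4 to 6% Camp, Amica1 was at 23.8 CPM in wild-type (20.4 to 27.7) and 9.13 CPM in PyMT cells (7.77 to 10.7). At 6 to 8% the values were 5.94 and 1.64 CPM, the latter on 3 UMIs. The Camp-low intervals overlapped too (84.5 to 181 and 154 to 170 CPM), at a log2 ratio of 0.36. That ratio was past 1.5-fold under 4 of 10 alternatives, and 1.02 after thinning. In the Camp-mid stage the wild-type cells were higher at the class totals (log2 ratio -0.81), and the ratio was -0.08 with the trimmed mean of M-values and -0.04 with the median of ratios. The ratio was past 1.5-fold under 7 of 10 alternatives, and -1.17 without likely doublets. In Camp-mid cells without UMIs of other lineages the levels were 41.0 CPM in wild-type and 18.3 CPM in PyMT cells. Monocytes held 92.4 and 124 CPM and B cells 37.5 and 28.1 CPM. With each cell thinned to 2500 UMIs, Amica1 was detected in 1.88% and 1.54% of Camp-high cells, 21.4% (11.6 to 34.4%) and 34.3% (32.2 to 36.4%) of Camp-low cells, 17.4% and 25.8% of monocytes, and 5.92% and 6.57% of B cells. Without thinning the Camp-low shares were 33.9% and 45.8%. Its promoter window, from the RefSeq entry Jaml, holds no match to the 4 motifs searched on both strands (GAGGAA, TTGCNNAA, GGAANTTCC and TTCNNNGAA) and is shown as a contrast to that of Itgam.
Amica1 promoter, chr9:45078933-45079232 (plus strand): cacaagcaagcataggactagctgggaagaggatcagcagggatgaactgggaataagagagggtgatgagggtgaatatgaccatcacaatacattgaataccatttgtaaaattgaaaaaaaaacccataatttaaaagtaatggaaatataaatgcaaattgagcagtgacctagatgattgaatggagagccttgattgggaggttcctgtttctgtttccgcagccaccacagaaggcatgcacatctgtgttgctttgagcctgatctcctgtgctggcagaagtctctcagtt

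The comparison of the libraries was read against all genes with at least 50 UMIs in the pair of sums, a call being a ratio past 1.5-fold. Over all neutrophils, Selplg and Amica1 were higher and Itgal, Itgb2l and Icam1 lower in the PyMT library, 2 and 3 of the 9 genes. Of 9927 genes tested, 7.11% were higher and 42.6% lower. The median of those genes was -0.47, and Itgal (-0.81), Itgb2l (-0.71) and Itgam (-0.56) had 29.1%, 34.9% and 44.2% of genes below them. Selplg (1.84, 1.79 to 1.90) and Amica1 (1.70, 1.55 to 1.85) exceeded 98.5% and 98.4% of genes. With libraries scaled by the trimmed mean of M-values, which adds 0.45, 16.7% of genes were higher and 18.3% lower, and the member calls were Selplg and Amica1 higher and Icam1 lower. Median-of-ratios scaling adds 0.52 and also places Cd44 past 1.5-fold higher. Neither Itgam nor Itgal nor Itgb2l was past 1.5-fold under those scalings, at -0.04, -0.30 and -0.19 with the median of ratios. In cells without UMIs of other lineages Itgal was at -0.39, under 1.5-fold, and Icam1 at 0.92.

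**Figure D2:**
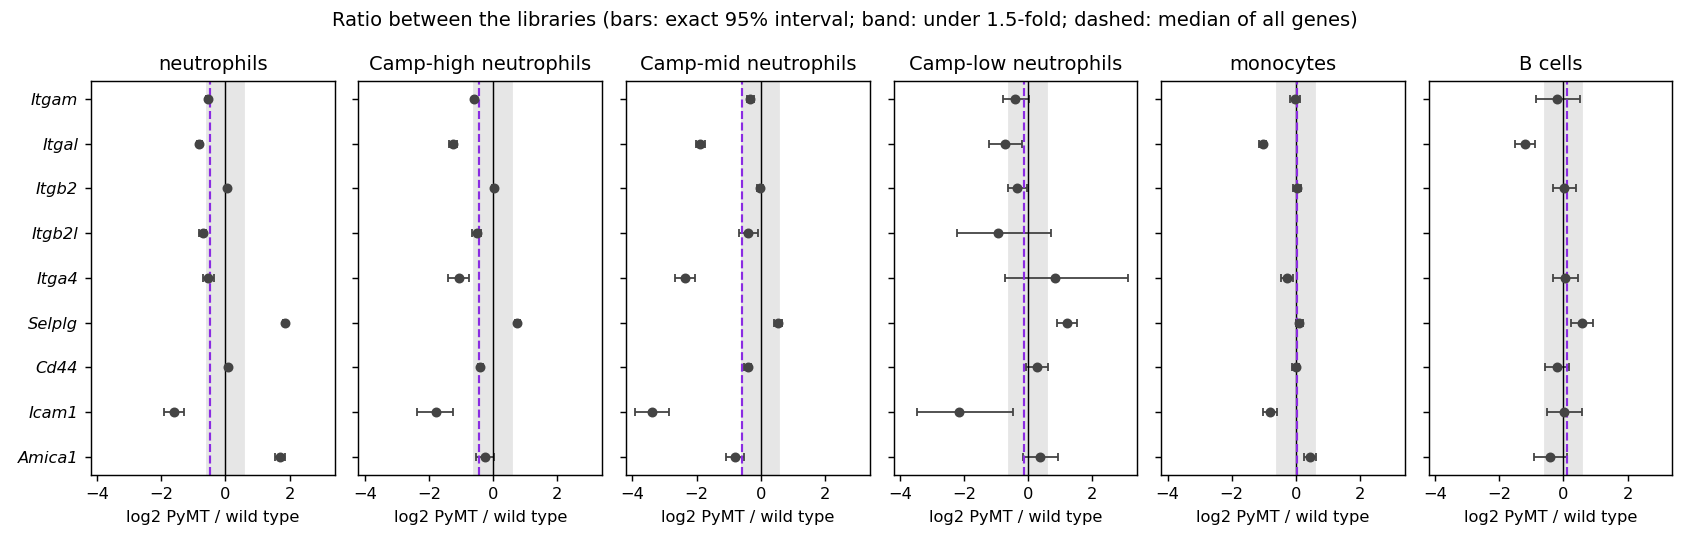
Log2 ratio of the PyMT over the wild-type library for each gene in 6 classes, with exact 95% counting intervals; the grey band is under 1.5-fold and the dashed line the median of all genes tested. Selplg lies right of the band in neutrophils as a whole and in the Camp-high and Camp-low stages, and Itgal left of it in each class.

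Within a stage the picture changed for Amica1. In Camp-high cells 1 member was higher (Selplg) and 3 lower (Itgal -1.26, Itga4 -1.07, Icam1 -1.80), against 3.21% and 41.1% of genes. In Camp-mid cells 0 were higher and 4 lower (Itgal -1.89, Itga4 -2.35, Icam1 -3.38, Amica1 -0.81), against 5.31% and 49.2% of genes. The Camp-low comparison had 2 higher (Selplg 1.21, Itga4 0.84) and 3 lower (Itgal -0.74, Itgb2l -0.94, Icam1 -2.15), against 18.6% and 30.4%, and its wild-type side is 56 cells, in which Itga4 had 3 and Itgb2l and Icam1 5 UMIs each. Under trimmed-mean scaling the share of genes called higher and lower became 11.9% and 18.5%, 26.0% and 16.1%, and 37.3% and 13% in the 3 stages, and the members 1 and 3, 2 and 3, and 4 and 1. The members higher under that scaling were Selplg in Camp-high cells and Itgb2 and Selplg in Camp-mid cells. In Camp-low cells they were Itga4, Selplg, Cd44 and Amica1. Selplg was higher in each stage under each of the 10 alternatives run there, but past 1.5-fold in Camp-mid cells under 4 of them. Outside neutrophils the libraries were closer. Monocytes had 0 members higher and 2 lower (Itgal -1.03, Icam1 -0.81) of 8 tested, against 8.77% and 7.77% of genes. In classical monocytes alone Icam1 was at -0.52, under 1.5-fold. The 7 dendritic markers summed to 99.1 CPM in wild-type and 18.6 CPM in PyMT monocytes, and the 6 progenitor markers to 43.6 and 240 CPM. Classical cells were also unequal, at 142 (with Xcr1 at 0) and 18.8 CPM (with Siglech and Clec9a at 0) for the dendritic list. Their progenitor sums were 71.7 and 310 CPM. The part of such RNA in the Itgal and Icam1 ratios of monocytes was not tested. B cells had 0 higher and 1 lower (Itgal -1.20), against 12.9% and 4.19%. The 5 NK cell markers summed to 182 CPM in wild-type and 31.9 CPM in PyMT B cells, and the 5 erythroid markers to 26.8 CPM (with Hbb-bt at 0) and 2899 CPM, and their part in the B cell ratio was not tested. Of the genes tested in B cells, 0.537% had a lower ratio than Itgal.

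When the PyMT stages were weighted as in the wild-type library (86.8% Camp-high, 11.8% Camp-mid and 1.41% Camp-low), Amica1 was at 15.6 CPM in wild-type and 12.5 CPM in PyMT cells, a log2 ratio of -0.32 in place of 1.70. Selplg kept a ratio of 0.74 (104 and 174 CPM). Of the PyMT neutrophils' Amica1 UMIs, 71.6% lay in Camp-low cells, which held 20.7% of all neutrophil UMIs, while 7.22% lay in Camp-high cells with 40.3% of all UMIs. Selplg had 53.2% of its UMIs in Camp-low cells. In the wild-type library 61.5% of the Amica1 UMIs lay in Camp-high cells. The ratio of Amica1 thus moved with the stage mix, and Selplg kept a higher level at matched stage weights. Camp was not matched inside the stages. At 6 to 8% Camp there were 1493 wild-type and 169 PyMT neutrophils, and at 4 to 6% there were 827 and 1434. In the bin of 4 to 6%, Selplg was at 124 CPM in wild-type and 151 CPM in PyMT cells, higher but under 1.5-fold. It was under 1.5-fold too at 2 to 4% (178 and 245 CPM) and at 6 to 8% (82.0 and 111.5 CPM). The part of such Camp differences in the weighted ratios was not tested. Itgal, Itga4 and Icam1 had lower ratios after weighting, at -1.37, -1.37 and -2.23.

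**Figure D3:**
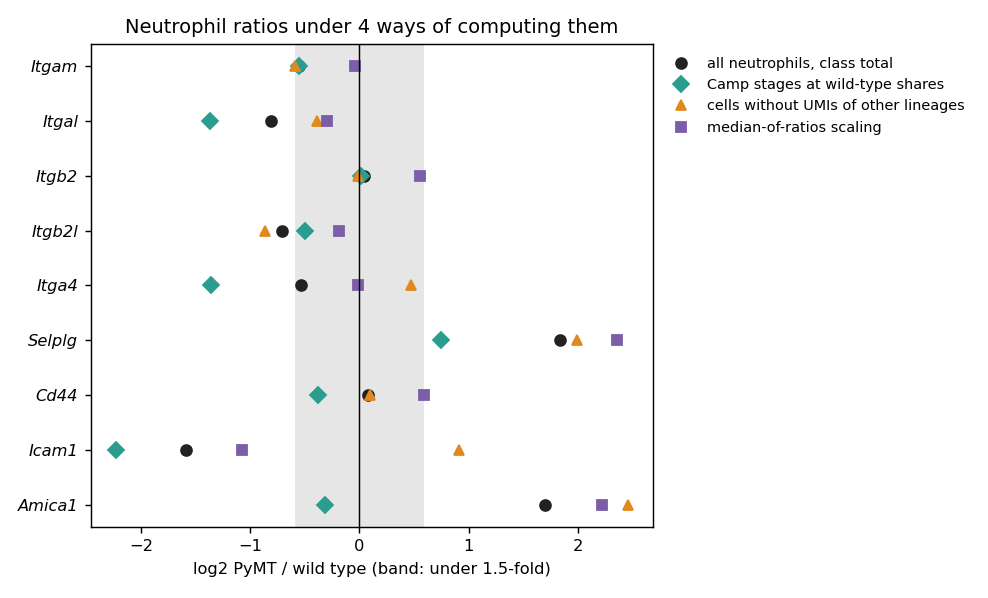
Log2 ratio of PyMT over wild-type neutrophils for each gene, computed from the class totals (circles), with Camp stages at wild-type shares (diamonds), in cells without UMIs of other lineages (triangles) and with median-of-ratios scaling (squares). Selplg is past 1.5-fold in all 4, Amica1 moves from 1.70 to -0.32 when stages are matched, and Icam1 moves to 0.92 in cells without other-lineage UMIs.

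From Camp-high to Camp-low cells, the same 5 genes were higher in both libraries: Amica1, Selplg, Icam1, Itgal and Cd44. The log2 ratio of Amica1 was 3.67 in the wild-type (3.06 to 4.22) and 4.27 in the PyMT library (4.04 to 4.51), above 99.9% of the genes tested in each. Selplg followed at 2.20 and 2.65, Icam1 at 1.89 and 1.53, Itgal at 0.90 and 1.42 and Cd44 at 0.67 and 1.33. The wild-type Icam1 value rests on 5 Camp-low UMIs (0.24 to 3.14), was 0.44 without the deepest 5% of cells, and could not be had in cells without other-lineage UMIs, where the Camp-low cells held 0. Itga4 was higher in the PyMT library alone (2.04), where the wild-type value of 0.14 rests on 3 UMIs, and the difference was not tested. Itgb2l was lower in both, at -0.98 with an interval of -2.61 to 0.24 and at -1.42 with one of -1.72 to -1.12. These are 5 higher and 1 lower in the wild-type library, against 25.6% and 16.2% of genes, and 6 and 1 in the PyMT library, against 26.7% and 20.7%. Neither chain of Mac-1 was past 1.5-fold, at -0.44 and -0.26 for Itgam and 0.34 and -0.03 for Itgb2. Trimmed-mean scaling, which moves the wild-type ratios by -0.27, gave 4 members higher and 2 lower there, against 17.1% and 23.8% of genes, with Itgam added to the lower ones and Cd44 under 1.5-fold. In the PyMT library it gave 6 and 1 again, against 21.2% and 28.2%.

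Over finer bins of Camp the levels changed by degrees. In the PyMT library Amica1 was at 1.64 CPM in cells with 6 to 8% Camp, 9.13 at 4 to 6%, 23.0 at 2 to 4%, 34.5 at 1 to 2%, 55.7 at 0.5 to 1%, 123 at 0.25 to 0.5% and 209 CPM below 0.25%. Selplg went from 111.5 to 1090 CPM over the same bins. Itgb2l went the other way, from 33.3 CPM at 6 to 8% to 29.4 at 1 to 2%, 18.4 at 0.25 to 0.5% and 5.52 CPM below 0.25%. The lowest wild-type bin with at least 20 cells was that of 0.5 to 1%. There, 28 cells held 313 CPM of Selplg against 537 CPM in 276 PyMT cells, and 75.8 CPM of Amica1 against 55.7 CPM. Selplg was at 266, 178, 124 and 82.0 CPM in wild-type cells with 1 to 2%, 2 to 4%, 4 to 6% and 6 to 8% Camp. The PyMT cells of those bins held 410, 245, 151 and 111.5 CPM. Of those bins, that of 1 to 2% was past 1.5-fold and the others were under it. The lowest PyMT bin alone held 1473 cells, against 12 wild-type cells.

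**Figure D4:**
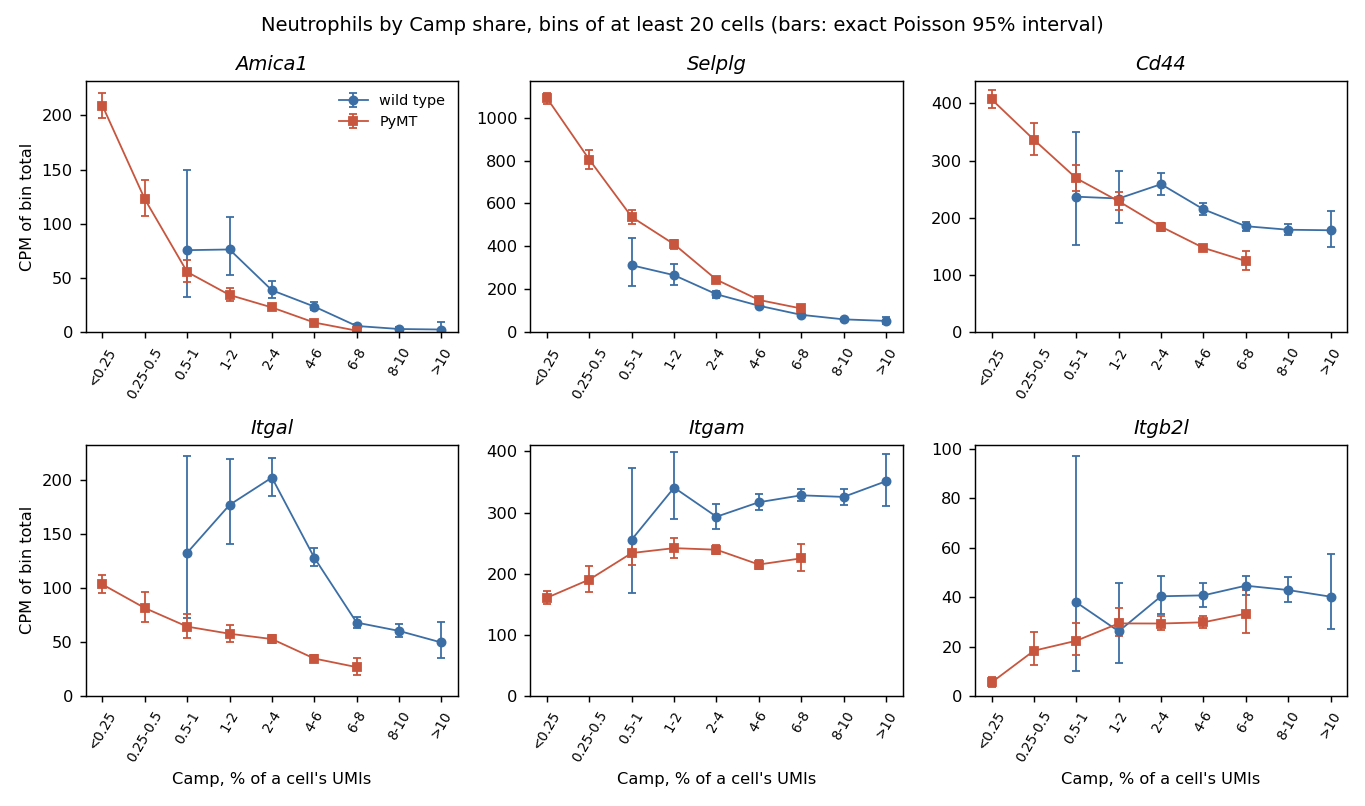
Levels of 6 genes (CPM of the bin total, linear axes from 0) in neutrophils binned by the Camp percentage of a cell's UMIs, low Camp at left, in bins of at least 20 cells, with exact Poisson 95% intervals. Amica1, Selplg and Cd44 climb toward low Camp in the PyMT library, and Itgb2l falls to 5.52 CPM.

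Within PyMT Camp-low cells, Selplg was higher in the cells with an Amica1 UMI, at a matched depth of 2500 UMIs. There, the 705 with an Amica1 UMI held 1198 CPM of Selplg and the 1353 without held 950 CPM, a log2 ratio of 0.33 (0.25 to 0.41). Itgb2 was at 331 and 342 CPM in the same cells, with an interval of -0.19 to 0.10 for the ratio. Cd44 was at 462 and 350 CPM and Itgal at 116 and 87.5 CPM. Cd84, a SLAM family receptor that was in the staining panel, stood at 428 and 304 CPM, and Wfdc17 at 28051 and 21931 CPM. Both genes were picked with earlier results known, and cells are not replicates. Camp was not matched between the cells with and without the UMI. The Selplg difference was not particular to these cells. PyMT Camp-high cells gave 0.91 (0.12 to 1.60, on 17 UMIs in 25 cells with Amica1) and PyMT B cells 1.34 (0.78 to 1.86). Wild-type Camp-high and B cells gave 0.62 (-0.05 to 1.21) and 0.95 (-1.01 to 2.44). In the Camp-mid stage the interval of the Selplg ratio included 0 in both libraries (-0.04 to 1.07 and -0.02 to 0.63), and monocytes gave -0.05 and -0.07. In the wild-type library the 12 Camp-low cells with an Amica1 UMI held 300 CPM of Selplg and the 44 without held 518 CPM (-0.79, -1.99 to 0.24).

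Genes with the most similar profile over 10 points (5 classes in 2 libraries, log2 of CPM plus 10, among 6610 genes with at least 500 UMIs) are a description, since the points share libraries and depth. Itgb2l was most like Slco4c1 (Pearson r = 0.99), Ppp1r42 and Ly6g5b. Itgb2 was most like Rgs18, Nfe2 and Adssl1 (0.987 to 0.997), and Itgam like Prdx5, Adssl1 and Vps26b. Amica1 was most like Gpr137b (0.98), Dazap2 and Supt4a, and Selplg like Snap23, Sephs2 and Smox (0.96 to 0.97). Itgal was most like Diaph1, a formin (0.98), and Icam1 like Ccdc50 and Il10ra (0.99). Among the members themselves, Itgam and Itgb2 had the highest r (0.98), followed by Itga4 and Icam1 (0.91).

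The other adhesion genes were read through 6 lists with 66 genes in the files. In neutrophils 42 of them had at least 50 UMIs in the pair of sums, of which 8 were higher and 14 lower in the PyMT library, beside the 7.11% and 42.6% of all genes. With the trimmed mean of M-values they were 11 higher and 7 lower, beside 16.7% and 18.3%. The list of selectins and selectin ligand synthesis had 4 higher and 3 lower of 10. Its leading genes were St3gal6, a sialyltransferase that can act on selectin ligands, at 12.3 CPM against 1.12 CPM (log2 ratio 3.45, 2.95 to 4.00), and Selp, which encodes P-selectin, at 14.9 against 2.501 CPM (2.58, 2.23 to 2.94). St3gal6 had 450 UMIs in PyMT Camp-low cells and 0 in the wild-type ones, at least 3.45-fold higher against a floor of 3 counts in that sum, and was at 2.06 against 0.925 CPM in Camp-high cells. Selp was at 37.7 CPM in PyMT Camp-low cells, 11.6 in Camp-mid and 6.42 in Camp-high cells, against 2.87 and 2.48 CPM in the wild-type Camp-mid and Camp-high stages. P-selectin is known best from platelets and endothelium. The 5 platelet markers, all with UMIs, summed to 27.6 CPM in PyMT Camp-low cells, 8.69 in Camp-mid and 6.22 in Camp-high cells, and to 8.70 (with Ppbp, Gp9 and Itga2b at 0), 10.9 and 7.84 CPM in the wild-type stages. Their part in the Selp level was not tested.

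Of the 15 genes for inside-out activation and linkage to actin, 13 were tested, 1 was higher and 3 lower in PyMT neutrophils. Skap2, an adaptor needed for integrin activation in neutrophils, was the higher one at 237 against 124 CPM (0.94, 0.88 to 0.99). It was also higher in the Camp-high, Camp-mid and Camp-low stages, at 0.67, 0.61 and 1.11. The difference was not confined to neutrophils: monocytes were at 0.57 (0.43 to 0.72), just under 1.5-fold, and B cells at 0.70 (0.24 to 1.18), past it. Vcl, which encodes vinculin, was at 38.8 against 84.4 CPM (-1.12). The integrin beta list had 0 higher and 4 lower of 4 with a median log2 ratio of -0.80, beside the 42.6% lower and the median of -0.47 of all genes, and with the trimmed mean of M-values 1 of the 4 was lower (Itgb3). At the class totals Itgb1 was at 16.3 against 25.4 CPM and Itgb7 at 7.16 against 13.95 CPM. Itgb7, a partner of Itga4, was also high in the wild-type Camp-mid cells that held more monocyte RNA, with 48.8 CPM in wild-type and 9.17 CPM in PyMT Camp-mid cells. Spn, the mucin CD43, was at 13.01 against 35.0 CPM (-1.43) and lower in each stage. Its list, of other ligands and junction receptors, had 2 higher (Pecam1 and F11r) and 2 lower (Vcam1 and Spn) of 7, and the integrin alpha list 1 higher (Itgax) and 2 lower (Itga6 and Itgav) of 4. Itgax was lower within the Camp-high and Camp-mid stages, at -1.19 and -1.20. Among the sheddases 0 of 4 was past 1.5-fold, and Mmp9 stood at 661 against 727 CPM in all neutrophils. Within Camp-low cells Mmp9 was at 736 against 1292 CPM (-0.81).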

How the data were processed

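Cells were sorted and sequenced by the submitters as 3′ libraries with version 2 reagents of the 10x Genomics Chromium platform, at 48488 reads per cell on average, per the labels' protocols. The submitters' processing notes name Cell Ranger 2.1.0 and mm10. The deposited matrices hold raw UMI counts per gene and cell, as the authors left them, with at least 2752 and 2502 UMIs in each cell. The annotation used for counting and the strand setting are not given in the sources used here. Itgam overlaps Gm49368 on the same strand, so reads of that overlap may be missing or shared.

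The members and lists were chosen with earlier results of these data known. Counts were summed per library and class in Python 3.11.15 with numpy 2.4.6 and scipy 1.17.1, and scaled to the class total. Cells meeting both the monocyte and the B cell rule (71 in each library) entered neither, and 677 and 1059 cells were in no class. Intervals are exact: Poisson for levels, conditional binomial for ratios and Clopper-Pearson for shares, all at 95%. A group at 0 was set to a floor of 3 counts, and no difference was read where that floor passed the level of the other group. With 1 library per group no p-value was computed. Named genes are the 9 members, the 3 genes of each adhesion list with the largest neutrophil ratio among those with at least 50 UMIs, and the 3 genes most like each member. Csf1r, Cd84 and Wfdc17 were added after their values were seen. Doublets were kept in the main values. One alternative dropped 241 and 671 cells with the highest scores against simulated doublets (scanpy 1.11.5, 0.8% per 1000 cells). The other alternatives were scaling by edgeR 4.0.16's trimmed mean of M-values, by the median of ratios or to a total that omits the top 50 genes by abundance, weighting cells equally, wild-type stage weights, cell quality filters, omission of the deepest 5% of cells, thinning to 2500 UMIs, other class limits, a 2-fold call, no minimum of UMIs, and, chosen after seeing the data, cells without UMIs of other lineages and classical monocytes alone. The ratio and class code was tested on simulated counts. Samples were grouped by title. Gene positions are from the GENCODE annotation on GRCm38, and RefSeq promoters matched 6 of the 9 members.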

Additional observations from a re-analysis of the deposited data

Results flagged for a closer look

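Amica1 was higher in PyMT neutrophils as a whole, with a log2 ratio of 1.70, and lower in the Camp-mid stage, with -0.81, so that the pooled and the within-stage direction were opposite at the class totals. The Camp-mid value was under 1.5-fold with the trimmed mean of M-values (-0.08) and the median of ratios (-0.04). It kept its sign under 10 of 10 alternatives and was past 1.5-fold under 7 of them. Itga4 was higher in the Camp-low stage (0.84, on 3 wild-type UMIs) and lower in the Camp-high (-1.07) and Camp-mid (-2.35) stages. With 1 library per group these differences between stages were not tested.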

How the results depend on the processing

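Of the alternative values of the 8 counts of members past 1.5-fold, 86 were within 1.5 times the main count and 15 were not. In neutrophils the count of 5 fell to 3 with the trimmed mean of M-values and with a 2-fold call. In Camp-low neutrophils the count of 5 became 2 with a 2-fold call, 3 after thinning, 3 without the deepest 5% of cells, 3 with Camp limits of 5% and 0.5%, and 2 in cells without UMIs of other lineages. In monocytes the count of 2 became 1 with a 2-fold call and 1 in classical monocytes. In B cells the count of 1 became 2 with equal weight per cell, 2 after thinning, 2 without the deepest cells, 2 in cells without UMIs of other lineages, and 3 with cells that meet both rules kept. In the wild-type stage comparison the count of 6 became 3 with a 2-fold call. Among members past 1.5-fold at the class totals, directions were opposite for Amica1 in neutrophils with wild-type stage weights (-0.32), for Icam1 in neutrophils (0.92) and Camp-high cells (0.90) without UMIs of other lineages, for Itga4 in the same Camp-high (0.0162) and Camp-low cells (-0.29), and for Itgb2l in Camp-low cells with Camp limits of 5% and 0.5% (0.0551). Signs changed among other members too: the sign held in 8 of 12 alternatives for Itga4 in neutrophils, and in 7 of 10 for Amica1 in Camp-high and for Itgam, Itgb2l and Cd44 in Camp-mid cells. For Icam1 in Camp-low cells without such UMIs no value could be had, as the wild-type side was at 0. Selplg stayed past 1.5-fold in neutrophils under the 12 alternatives (0.74 to 2.36) and Itgal in Camp-high cells under 10 (-1.26 to -0.76). None of those alternatives matched Camp inside the stages. In the Camp bins of 2 to 4%, 4 to 6% and 6 to 8%, Selplg was higher in PyMT cells but under 1.5-fold. The cause of the other changes was not tested. Fewer UMIs follow from thinning and from leaving cells out. No paired analysis was possible because each group is 1 library. Depth limits the wild-type Camp-low values, where 56 cells held 229891 UMIs and 1456 of 8513 genes compared were at 0.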
